A study of Mus musculus with 2 samples.

Results

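Ankyrins and spectrins form the submembrane skeleton of neurons and red blood cells, and the GLORI sites of 7 of their genes, Ank1, Ank2, Ank3, Sptan1, Sptb, Sptbn1 and Sptbn4, are described here. A site was assigned to a gene when it lay inside the gene's GENCODE M21 interval on GRCm38, on the gene's strand. Of 219409 sites in either library, 716 were assigned to these genes, which are 7 of 21888 annotated coding genes. The intervals ran from 65.9 kb for Sptan1 to 629 kb for Ank3.

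GLORI converts unmethylated adenosine with glyoxal and nitrite to a base read as G, so that adenosines still read as A mark m6A at single-base resolution. A cerebellum and a cerebrum library, 1 of each, came from poly(A)+ RNA of a newborn (P0) female F1r mouse, the cross of a C57 mother and a PWK father, and the labels give no further allele or agent. The site lists gave positions without methylation rates or read counts, so the depth was unknown. An adenosine that was not listed may be unmethylated, or methylated at too low a rate to pass the authors' filter. It may also be on an RNA that was not expressed, or too thinly read to pass that filter. With 1 library per tissue and bulk RNA, a tissue difference had no replicate check, and fewer cells of a type cannot be told apart from less RNA per cell.

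Ankyrins are adaptors that tie ion channels and cell adhesion molecules to spectrin, and spectrin tetramers of alpha and beta chains bridge short actin filaments. In axons this lattice recurs as a regular array under the membrane. The giant neuronal forms of ankyrin-G and ankyrin-B are made by including a giant exon in Ank3 and Ank2, and giant ankyrin-G organises the axon initial segment and nodes of Ranvier. m6A is written in messenger RNA mainly in the DRACH context, in which any base but C is followed by a purine, the methylated A, a C and any base but G, and it is depleted near exon junctions.

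The cerebellum library listed 79355 sites and the cerebrum library 188295, a ratio of 2.37. Of the hindbrain markers, 8 of 10 had a cerebellum site and 6 a cerebrum site, and of the forebrain markers 5 of 12 had a cerebellum site and all 12 a cerebrum site. In the hindbrain list 3 genes had more cerebellum sites (En1, En2 and Barhl1) and 4 more cerebrum sites (Zic1, Zic2, Zic4 and Lhx9), whereas all 12 forebrain genes had more in the cerebrum. More cerebrum sites were also found in 91.0% of all coding genes with a site, so the forebrain count alone says little about the tissue. En1 and En2 had no cerebrum site. In these libraries labelled female, 14 and 30 sites lay on chromosome Y. Of 4 red blood cell markers, none had a cerebellum site and Hbb-bs had 1 cerebrum site. That list is given because Ank1 and Sptb encode the main ankyrin and beta spectrin of red cells. The oligodendrocyte lineage list had sites in 4 of 4 genes in each library, the endothelial list in 1 of 3 and the microglial list in 2 of 3 and 3 of 3. The part of these cells in the members' sites was not tested.

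The sequences below show where the sites lay. For the giant exons, the stretch of 300 nt with the most DRACH sites found in both libraries is printed 5′ to 3′ in GRCm38, with the 5-mers of those shared sites in capitals. The Ank2 stretch was chr3:126943933-126944232 on the minus strand, nucleotides 3576 to 3875 of the exon. It held 4 shared sites, a further 2 DRACH sites of the cerebrum library and 4 DRACH adenosines that neither library listed. The Ank3 stretch was chr10:69987608-69987907 on the plus strand, nucleotides 1520 to 1819 of the exon, with 4 shared sites, 1 site outside DRACH and 5 unlisted DRACH adenosines.
Ank2 giant exon: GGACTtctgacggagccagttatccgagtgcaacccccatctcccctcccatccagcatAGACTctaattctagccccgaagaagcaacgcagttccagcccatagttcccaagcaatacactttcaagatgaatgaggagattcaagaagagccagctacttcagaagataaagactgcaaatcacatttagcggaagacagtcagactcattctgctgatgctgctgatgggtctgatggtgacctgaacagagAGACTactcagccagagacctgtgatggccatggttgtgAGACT
Ank3 giant exon: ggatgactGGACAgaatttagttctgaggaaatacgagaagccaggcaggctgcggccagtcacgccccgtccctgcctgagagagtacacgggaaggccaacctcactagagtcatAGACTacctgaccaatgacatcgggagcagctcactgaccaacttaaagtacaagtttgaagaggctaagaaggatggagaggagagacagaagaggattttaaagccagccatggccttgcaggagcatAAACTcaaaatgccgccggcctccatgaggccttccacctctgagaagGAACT

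For the other genes, up to 2 shared DRACH sites nearest the stop codon are printed with 10 nt on either side and the 5-mer in capitals, coding sequence first. The Sptbn1 sites lay in exon 25 of 31 of Sptbn1-203, at positions 30117795 and 30117906 of chromosome 11, minus strand. No DRACH site lay on a coding exon of Sptan1, so the first 2 by position of its 4 shared DRACH sites are printed instead, at 29988198 and 29988245 of chromosome 2, plus strand, on the retained-intron isoform Sptan1-210. The Ank1 site was at 23148692 of chromosome 8, plus strand, 438 nt after the stop codon, and the Sptbn4 sites at 27357224 and 27356686 of chromosome 7, minus strand, 68 and 606 nt after it, in a stretch that another gene of the same strand also covers. Sptb had no shared DRACH site.
Sptbn1 site A: cctcatatGAACTtcataagt
Sptbn1 site B: tcaactctGGACAttcagatg
Sptan1 site A: cttccgatGAACTtttaagga
Sptan1 site B: tgcattgtTGACTtttgagaa
Ank1 site: atctttctGGACCgaggaaac
Sptbn4 site A: tgcactgtGGACAcaaagaca
Sptbn4 site B: aaaaacgtAGACCccccctcc

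Ank2 and Ank3 held most of the sites of the 7 genes. A cerebellum site was found in 6 of the 7 genes and a cerebrum site in 7 of 7, against 41.3% and 57.6% of all coding genes. The members together had 260 cerebellum and 603 cerebrum sites, of which 147 were shared. Each of the 7 genes had more sites in the cerebrum than in the cerebellum, as did 91.0% of coding genes with a site. The excess was smaller for DRACH sites on coding exons, with 144 in the cerebellum and 170 in the cerebrum, a ratio of 1.18. All 6 members with such a site had more of them in the cerebrum, as did 81.2% of the coding genes with such a site. Over the 1372 coding genes with at least 10 such cerebellum sites, the median ratio was 1.33 (quartiles 1.14 and 1.60).

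A larger share of DRACH sites than of other sites was found in both libraries. The DRACH share of the members' sites was 60.8% for the cerebellum (95% Wilson interval 54.7–66.5%, 158 of 260) and 34.5% for the cerebrum (30.8–38.4%, 208 of 603), where all sites of the libraries gave 62.1% and 46.7%. These and all later intervals cover counting error over sites only. On coding exons the DRACH share was 78.7% for the cerebellum (72.2–84.0%) and 63.0% for the cerebrum (57.1–68.5%), and elsewhere in the intervals 18.2% (11.2–28.2%) and 11.4% (8.43–15.3%), where the sites of other coding genes off coding exons gave 30.0% and 21.5%. Of the DRACH sites, 84.8% of the cerebellum list (78.4–89.6%) and 64.4% of the cerebrum list (57.7–70.6%) were in both libraries, where all DRACH sites gave 81.0% and 45.3%. Of the sites outside DRACH, 13 were shared, which is 12.7% of 102 in the cerebellum (7.60–20.6%) and 3.29% of 395 in the cerebrum (1.93–5.55%), below the 27.7% and 8.31% of all sites outside DRACH.

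**Figure D1:**
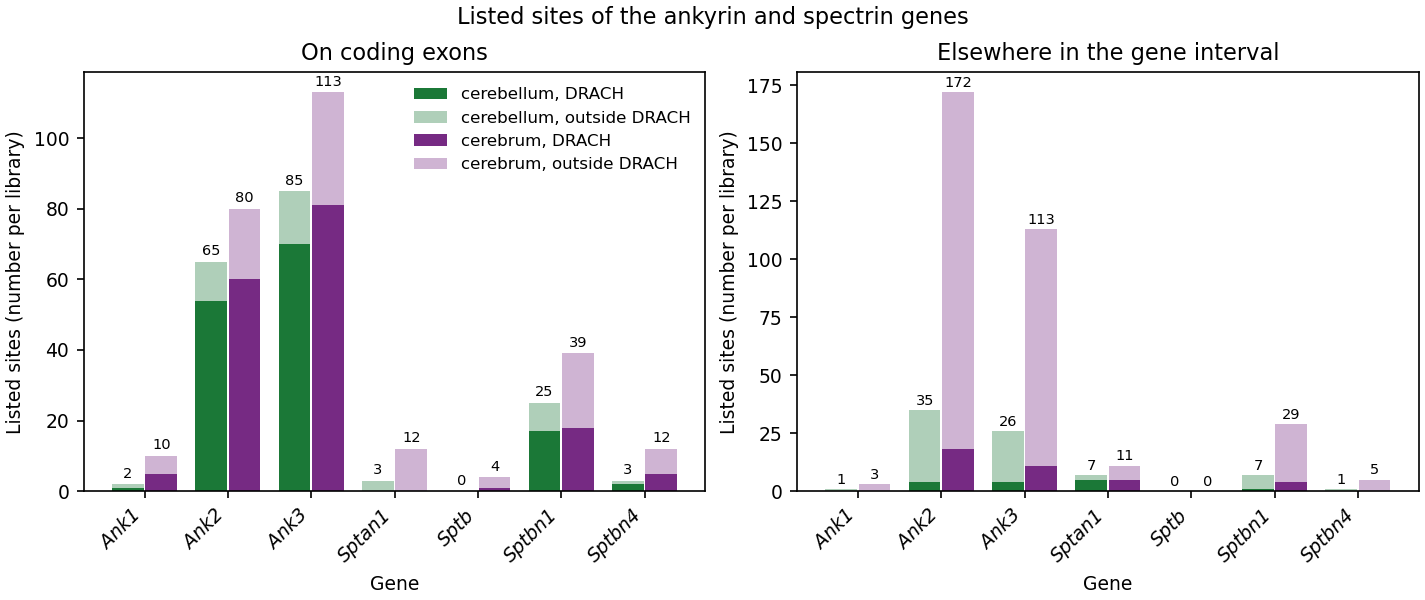
Number of listed sites of each gene in the cerebellum (green) and cerebrum (purple) library, on coding exons (left) and elsewhere in the gene interval (right), with DRACH sites in full colour, sites outside DRACH in pale colour and the total above each bar. Ank2 and Ank3 lead in both panels, and the 172 cerebrum sites of Ank2 off coding exons are mostly outside DRACH.

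Ank3, at 10:69398773-70027438 on the plus strand, had the most coding-exon DRACH sites of the 7 genes, 70 in the cerebellum library and 81 in the other, with 61 in both. It ranked 9 and 10 among the 9843 coding genes with such a site. Of its 470 DRACH adenosines on coding exons, 14.9% were listed in the cerebellum and 17.2% in the cerebrum (14.1–20.9%), against 5.22% and 6.93% over the other coding genes with a site in that library. Off coding exons, Ank3 had 26 cerebellum and 113 cerebrum sites, of which 2 were shared, where other coding genes shared 29.8% of such cerebellum sites and 8.97% of such cerebrum sites.

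The giant exon of Ank3, exon 6 of 9 of Ank3-244, is 7674 nt long (10:69986089-69993762). It is annotated at this length in 1 of 31 coding isoforms, whose ends are marked as incomplete, and a 2550-nt version of it occurs in another isoform. The exon held 44 cerebellum and 49 cerebrum DRACH sites, 36 of them shared. In either library 57 of its 201 DRACH adenosines were listed, or 28.4% (22.6–34.9%). They ran from nucleotide 87 to nucleotide 7480 and were present in each 1000-nt window in the cerebrum. The window from 7001 to the end of the exon held 17 DRACH adenosines, of which none was listed in the cerebellum and 1 in the cerebrum.

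The 3′UTR of Ank3-231, in the last of 43 exons (3607 nt), was the other dense part of Ank3. It held 24 cerebellum and 27 cerebrum DRACH sites, 23 of them shared, of 79 DRACH adenosines, and the listed share was 34.2% in the cerebrum (24.7–45.2%). Windows by distance from the stop codon were counted over the 3′UTRs of all Ank3 coding isoforms, not of Ank3-231 alone. They thus take in the last exons of Ank3-208, Ank3-223 and Ank3-234, with 1, 10 and 5 DRACH adenosines and none listed. From 501 to 1000 nt after the stop codon, 9 of 12 DRACH adenosines were listed in each library and the same 9 were shared. That was 75.0% (46.8–91.1%), against 10.6% in the cerebrum over the other coding genes with a site in both libraries. It was the highest share of the Ank3 windows. Within 200 nt of the stop codon, the cerebrum listed 1 of 11, or 9.09% (1.62–37.7%), against 22.4%. From 201 to 500 nt, from 1001 to 2000 nt and beyond, it listed 36.8%, 23.5% and 16.2%, against 17.1%, 6.88% and 4.47%. The first exon of Ank3-231 had 2 shared 5′UTR sites, in GGACT at position 69534122 and in TGACT at position 69534142, and the first exon of Ank3-233 had 1 in the cerebrum. In contrast, 1 of 118 DRACH adenosines of short internal exons, those up to 400 nt, was listed in the cerebrum and none in the cerebellum, where a count of 0 allows a share of up to 2.54%. The cerebrum share, 0.847%, was near the 0.941% of such exons of other coding genes, which had 0.542% in the cerebellum.

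Ank2, at 3:126921612-127499350 on the minus strand, encodes ankyrin-B and had 54 cerebellum and 60 cerebrum DRACH sites on coding exons, with 50 in both. It ranked 21 and 42 among the coding genes. The cerebrum listed 172 sites off its coding exons and the cerebellum 35, with 5 in both, also a smaller fraction of either list than in other coding genes. Of these, 18 cerebrum and 4 cerebellum sites were in DRACH and none of them was shared. In all, 7 cerebellum and 23 cerebrum sites of the Ank2 interval, all off its coding exons, also lay in another gene of the same strand.

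The giant exon of Ank2, exon 37 of 46 of Ank2-208, is 6198 nt long (3:126941610-126947807) and occurs in 2 of 16 coding isoforms. It held 30 cerebellum and 34 cerebrum DRACH sites, with 28 in both, so that 2 were found only in the cerebellum and 6 only in the cerebrum. Of its 179 DRACH adenosines, 36 were listed in either library, or 20.1% (14.9–26.6%). The interval overlapped that of the Ank3 exon. No DRACH site lay on the other internal coding exons of Ank2 in the cerebellum, and 1 of 129 DRACH adenosines did in the cerebrum, in GAACC of exon 28 of Ank2-207. That was 0.775%, near the 0.941% of short internal exons of other coding genes, which had 0.542% in the cerebellum.

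The 3′UTR in the last exon of Ank2-208 (exon 46, 2358 nt) held 24 DRACH sites in each library, 22 of them shared, of 60 DRACH adenosines, or 40.0% (28.6–52.6%). They lay 147 to 1963 nt after the stop codon. The last exons of shorter isoforms were nearly empty, with 0 of 24 DRACH adenosines listed for Ank2-203 and 1 of 23, in the cerebrum, for Ank2-221. The same held for Ank3, where the last exons of Ank3-208, Ank3-223 and Ank3-234 had none of 1, 10 and 5 listed. Whether these short isoforms were expressed was not tested.

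**Figure D2:**
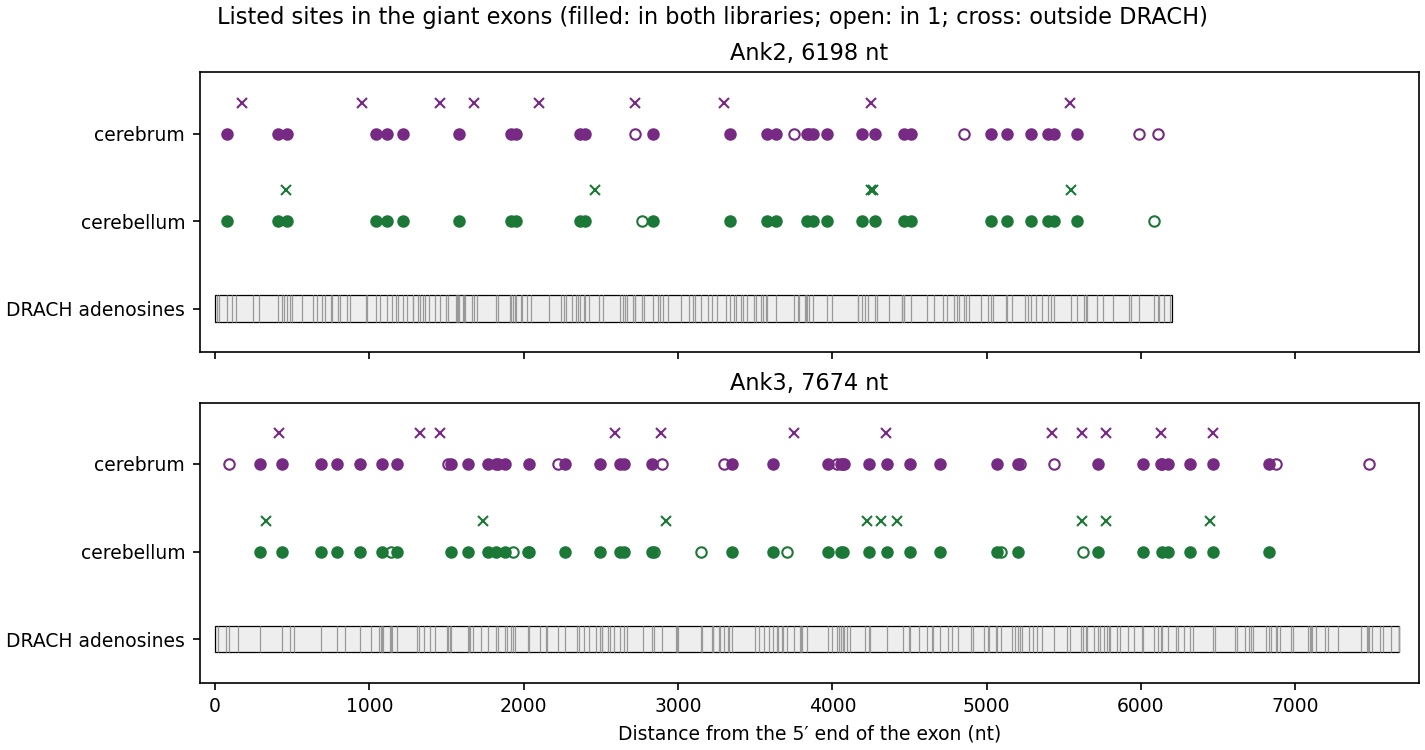
Listed sites along the giant exons of Ank2 (top) and Ank3 (bottom), by distance from the 5′ end of the exon in nt, for the cerebellum (green) and cerebrum (purple), with filled circles for DRACH sites in both libraries, open circles for those in 1 and crosses for sites outside DRACH. Grey lines mark all 179 and 201 DRACH adenosines, and the sites are spread along both exons, with 28 and 36 of them shared.

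In Ank2 the median gap between neighbouring DRACH sites of the giant exon was 147 nt in the cerebellum and 121 nt in the cerebrum, and in Ank3 it was 135 and 140 nt. The median gap between all DRACH adenosines, listed or not, was 26 nt in either exon, and a subset of them is further apart by construction. The widest gaps in the cerebrum were 577 nt in Ank2 and 607 nt in Ank3. Gaps of up to 20 nt numbered 1 of 33 in Ank2 and 5 of 48 in Ank3 in the cerebrum. Per kb, Ank2 had 4.84 cerebellum and 5.49 cerebrum DRACH sites and Ank3 5.73 and 6.39.

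The listed share in the giant exons differed by the base after the cytosine. Of the 5-mers ending in ACT, 53 of 104 were listed in the cerebrum, or 51.0% (41.5–60.4%), against 11.6% for those ending in ACA (7.65–17.3%, 20 of 172) and 9.52% for those ending in ACC (5.26–16.6%, 10 of 105). In the giant exons of other genes the shares were 39.0%, 15.8% and 10.4%. All 9 GAACT of the Ank3 exon were listed in both libraries, and in Ank2 5 of 8 in each. AGACT was listed at 7 of 12 in Ank2 and 8 of 11 in Ank3 in the cerebrum, and GGACT at 8 of 12 in Ank2 and 1 of 3 in Ank3. GGACA was listed at 10 of 17 in Ank3 and 3 of 8 in Ank2. In the giant exons of other genes the cerebrum listed 42.8% of GAACT, 41.3% of AGACT, 48.4% of GGACT and 34.9% of GGACA. None of 26 TGACC was listed in either library, where a count of 0 allows up to 11.5%, and of 51 AAACA the cerebellum listed 2 and the cerebrum none, where in other genes the cerebrum listed 5.08% of TGACC and 6.24% of AAACA.

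The giant exons held about as many of the members' coding-exon DRACH sites as all other exons together. They accounted for 74 of 144 in the cerebellum, 51.4% (43.3–59.4%), and 83 of 170 in the cerebrum, 48.8% (41.4–56.3%). They made up 15.5% of the coding-exon length and 19.5% of the DRACH adenosines of the 7 genes, so that the sites were 2.64-fold and 2.51-fold above the adenosine share. Within Ank2 and Ank3 alone, with their 3′UTR sites in the same count, the fold was 1.42 and 1.41 in the cerebrum. A DRACH site in a giant exon was found in 2 of the 2 members with one, as in 61.6% of the coding genes with such an exon in the cerebellum and 70.4% in the cerebrum. The listed share of DRACH adenosines in the giant exons was 19.4% for the cerebellum (15.8–23.7%) and 21.8% for the cerebrum (17.9–26.2%), and in giant exons of other genes 15.3% and 20.7%.

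By number of DRACH sites in 1 internal coding exon of the cerebrum library, Ank3 stood at place 7 and Ank2 at place 28 of 3104 genes. The genes next above Ank3 were Ptprz1, Fat4 and Vcan with 53, 52 and 51 such sites, and those next below were Zfp462, Fat3 and Tcf20 with 49, 48 and 47, against 49 in Ank3. Around Ank2, with 34, stood D630045J12Rik and Ranbp2 with 35 each and Pclo with 34 above it, and Zfp644, Hivep2 and Rev3l with 34, 34 and 33 below it. Equal counts were ordered by the cerebellum count, and neighbours in this order differ by at most a few sites. The order is by count, and Ank3 with 201 and Ank2 with 179 DRACH adenosines had more of them in that exon than these neighbours. The neighbours had from 53 to 140. As a share, the cerebrum listed 24.3% of the giant-exon DRACH adenosines of Ank3 and 19.0% of those of Ank2. Over 212 other genes with at least 20 such adenosines, the median was 24.2% (quartiles 11.8% and 35.3%).

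**Figure D3:**
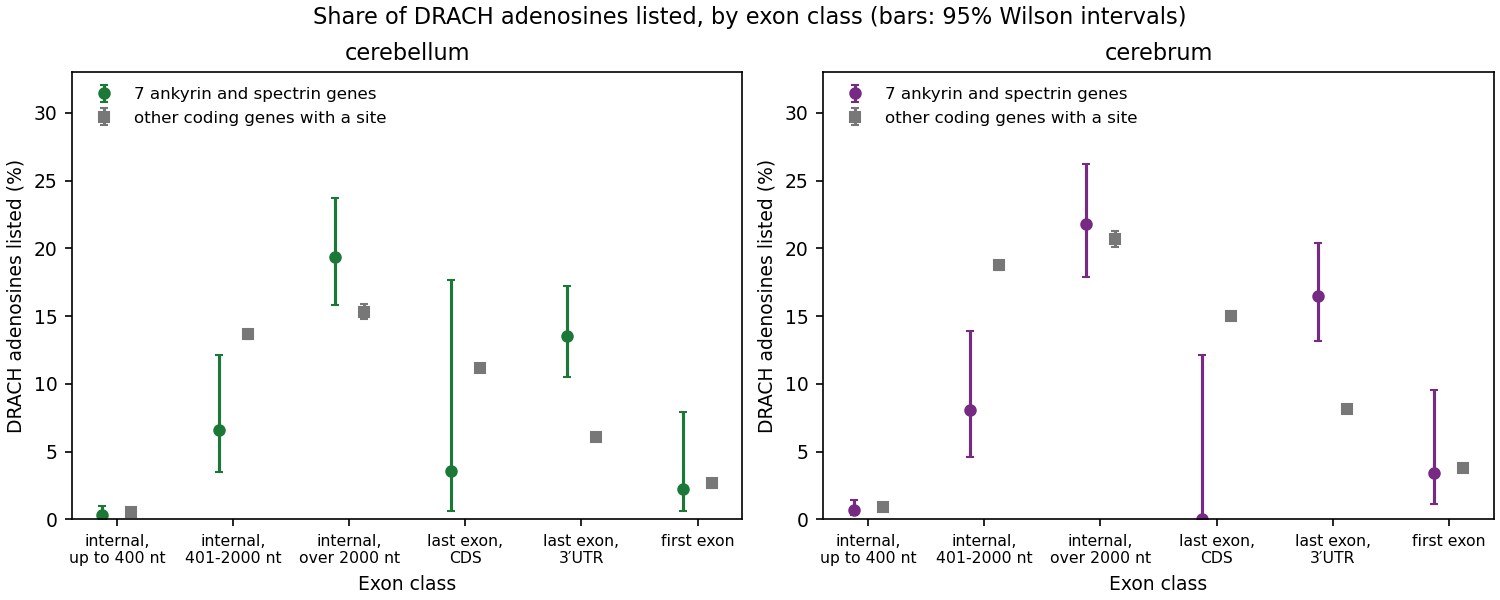
Percent of DRACH adenosines listed in the cerebellum (left) and cerebrum (right) by exon class, for the 7 ankyrin and spectrin genes (circles) and the other coding genes with a site (squares), with 95% Wilson intervals as bars. Short internal exons are near 0 in both sets, at 0.331% and 0.663% for the members, and the last-exon 3′UTR of the members, at 13.5% and 16.5%, lies above that of other genes.

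Ank1, at 8:22974844-23150497 on the plus strand, encodes the ankyrin of red blood cells and had few sites. It had 3 cerebellum sites and 13 cerebrum sites, of which 1 was shared. Its DRACH sites, 1 and 5, all lay in the 3′UTR in the last of 44 exons of Ank1-209, from 184 to 2116 nt after the stop codon. Over its last-exon 3′UTRs, 1 of 52 DRACH adenosines was listed in the cerebellum, or 1.92% (0.340–10.1%), against 6.11% in other coding genes. In the cerebrum it was 5 of 52, or 9.62% (4.18–20.6%), against 8.12%. None of the 121 DRACH adenosines in its short internal exons was listed in either library, which allows a share of up to 2.48%. Such exons of other coding genes had 0.542% listed in the cerebellum and 0.941% in the cerebrum, so this 0 does not set Ank1 apart. Ank1 has no giant exon, and its longest internal coding exon is 538 nt.

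Sptan1, at 2:29965560-30031451 on the plus strand, encodes the alpha chain that pairs with the beta spectrins outside red cells. It had 10 cerebellum and 23 cerebrum sites, but none of the 197 DRACH adenosines on its coding exons was listed in either library. Its longest internal coding exon is 297 nt, and 184 of these adenosines lay in internal exons of up to 400 nt. For those 184 a count of 0 allows up to 1.63%. Other coding genes had 0.542% listed in such exons in the cerebellum and 0.941% in the cerebrum, so this 0 does not set Sptan1 apart. The 15 sites that did lie on its coding exons, 3 in the cerebellum and 12 in the cerebrum, were all outside DRACH and none was shared. Of the 6 DRACH sites elsewhere in the interval, 4 were in both libraries, 2 of them on the retained-intron isoform and 2 in introns, in GAACT at 30000671 and GGACT at 30001783. Of the 7 shared DRACH sites of the members off coding exons, 4 were thus in Sptan1, 2 in Ank3 and 1 in Sptbn1.

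Sptbn1, at 11:30099395-30268175 on the minus strand, encodes the widely expressed beta-II spectrin of the axonal lattice and had the most sites of the spectrin genes. It had 32 cerebellum and 68 cerebrum sites with 17 in both, and 17 and 18 DRACH sites on coding exons with 13 in both. The long internal exons, 13 (871 nt) and 15 (757 nt) of Sptbn1-203, held 9 (cerebellum) and 10 (cerebrum) of these at 37 DRACH adenosines, or 24.3% (13.4–40.1%) and 27.0% (15.4–43.0%). Exon 15 alone had 7 sites in each library, 5 of them shared, from 204 to 723 nt into the exon in the cerebellum. Exon 25, of 375 nt, had 3 sites, all shared. The remaining short internal exons had 1 DRACH site, in the cerebrum, in GGACT of exon 11.

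The 3′UTR sites of Sptbn1 in DRACH lay in the last exon of Sptbn1-201. The last exon of Sptbn1-201 (1320 nt) had 4 DRACH sites in each library and 3 in both, of 21 DRACH adenosines, the nearest of them 1 nt after the stop codon. None of the 36 DRACH adenosines in the 3′UTR of Sptbn1-203, in a last exon of 2368 nt, was listed in either library. Its coding part held 1 DRACH site, in AAACT in the cerebellum.

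Sptbn4, at 7:27356383-27447686 on the minus strand, encodes beta-IV spectrin, the partner of ankyrin-G at the axon initial segment and nodes of Ranvier. It had 4 cerebellum sites and 17 cerebrum sites, 3 of them shared. Its DRACH sites on coding exons, 2 in the cerebellum and 5 in the other library with 2 in both, all lay in the 3′UTR of the last exon of Sptbn4-201, 68 to 606 nt after the stop codon, among 15 DRACH adenosines. Of its sites, 2 of the cerebellum list and 9 of the cerebrum list also lay in another gene of the same strand and cannot be told apart from it. These include all of its DRACH sites, 2 of 2 in the cerebellum and 5 of 5 in the cerebrum. None of the 28 DRACH adenosines in its long internal exons, those over 400 and up to 2000 nt, was listed in either library, which allows up to 10.7%.

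Sptb, at 12:76580488-76710547 on the minus strand, encodes the beta spectrin of red cells. No cerebellum site and 4 cerebrum sites lay in it, all on coding exons, and 1 of them was in DRACH, in AGACT of the 3′UTR of Sptb-202. None of the 33 DRACH adenosines of its long internal exons was listed, against 10 of 37 in Sptbn1 in the cerebrum. Over the long internal exons of all 7 genes, 8.09% of 136 DRACH adenosines were listed in the cerebrum (4.58–13.9%), below the 18.8% of other coding genes, and the 11 listed were 10 in Sptbn1 and 1 in Ank3. The number of reads on Sptb is not known from the files, so the listed shares of these genes were set side by side without a test.

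Region by region, the coding-exon DRACH sites of the 7 genes lay mostly in coding sequence. The CDS held 60.4% in the cerebellum (52.3–68.0%, 87 of 144) and 58.8% in the cerebrum (51.3–65.9%, 100 of 170), against 40.1% and 41.5% of those of other coding genes. The CDS also held 75.1% of the DRACH adenosines of the members, against 45.1% and 45.8% for the others, so the sites stood at 0.804-fold and 0.783-fold of the adenosine share. The 3′UTR held 38.2% (30.7–46.3%) and 39.4% (32.4–46.9%), which was 1.83-fold and 1.89-fold its share of DRACH adenosines, where the other genes had 1.19-fold and 1.18-fold. The 5′UTR held 2 and 3 sites, all in Ank3.

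Listed sites of the members were rare near exon junctions. Of the members' DRACH adenosines on coding exons, 50.1% lay fewer than 100 nt from a junction, but only 3 of 144 cerebellum sites, 2.08% (0.711–5.95%), and 7 of 170 cerebrum sites, 4.12% (2.01–8.25%), did so. For other genes the shares were 7.06% and 8.44%, against 35.6% and 36.7% of the adenosines. The listed share in the cerebrum went from 0.292% of 685 adenosines below 50 nt to 20.8% of 221 adenosines between 400 and 999 nt. Of the 8 sites below 100 nt in either library, 4 were in Sptbn1, 3 in Ank2 and 1 in Ank3, and 2 were shared, in GGACT 78 nt into the Ank2 giant exon and in GAACT of exon 25 of Sptbn1.

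**Figure D4:**
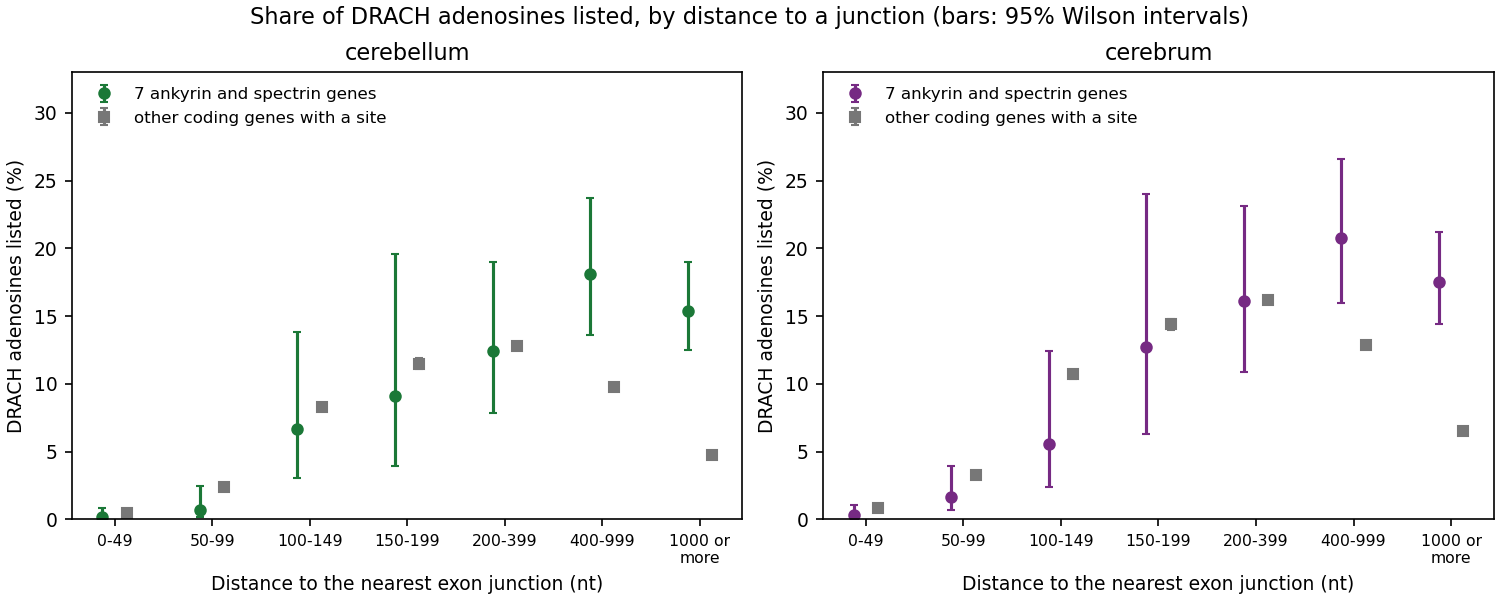
Percent of DRACH adenosines on coding exons that were listed, by distance to the nearest exon junction in nt, in the cerebellum (left) and cerebrum (right), for the 7 genes (circles) and the other coding genes with a site (squares), with 95% Wilson intervals as bars. Below 100 nt both sets stay under 4%, and from 400 nt the members lie above the other genes, at 20.8% against 12.9% in the 400 to 999 nt bin of the cerebrum.

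In the last-exon 3′UTR, a larger share of the DRACH adenosines of the 7 genes was listed than of those of other genes, without a test. It was 13.5% for the cerebellum (10.5–17.2%) and 16.5% for the cerebrum (13.2–20.4%), against 6.11% and 8.12% for other coding genes. Ank2 and Ank3 had 23.4% (16.4–32.2%) and 28.4% (20.3–38.2%) in the cerebrum, while the 4 spectrins together had 6.54% (3.59–11.6%) and Sptbn4 alone 5 of 15, all 5 also in another gene of the same strand. By distance, the members' cerebrum share was 9.09% within 200 nt of the stop codon (4.23–18.4%), 24.4% from 201 to 500 nt (16.6–34.5%) and 25.8% from 501 to 1000 nt (17.9–35.8%). The other genes with a site in both libraries had 22.4%, 17.1% and 10.6% in the same windows.

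Among partners of the members, of 12 genes for proteins of the actin-spectrin junction, such as adducins, protein 4.1 and tropomodulins, 11 had a site in each library and 11 had more in the cerebrum. Those with the most sites were Add2, with 22 and 53, and Epb41l1, with 31 and 37. Of 12 membrane partners of ankyrins, 10 had a cerebellum and 11 a cerebrum site, led by Slc8a1, the sodium-calcium exchanger, with 90 and 218, and Kcnq3, a potassium channel subunit, with 51 and 104. All 6 axon initial segment genes had a cerebrum site and 5 a cerebellum site, led by Tnik, with 39 and 105, and Mical3, with 37 and 72. Among the genes of these lists with a site, 11 of 11, 11 of 11 and 6 of 6 had more cerebrum sites, where 91.0% of coding genes with a site had more. These counts are over whole gene intervals. DRACH sites on coding exons numbered 16 and 32 in Add2, 16 and 21 in Epb41l1, 42 and 49 in Slc8a1 and 25 and 48 in Kcnq3. They numbered 8 and 16 in Tnik and 20 and 38 in Mical3. By such sites Tnik did not lead its list, in which another gene had 35 and 37.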

How the data were processed

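GLORI was performed by the authors on poly(A)+ RNA, with deamination at a higher temperature than in the original protocol. The authors mapped the reads to mm10 and to PWK-mm10, a copy with the PWK base at each SNP, called sites with GLORI-tools, filtered on methylation rate and read count, and united the sets of both genomes. The deposited files hold the position and strand of each site, a unit of genomic position without a count, rate or score. The cerebrum list carries the abbreviation for cerebellum in its name, and the tissue was taken from the sample label. Positions were read on GRCm38, the assembly mm10 names, with gene models of GENCODE M21, which is not the release given in the methods.

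A site on a coding exon was assigned to the longest coding isoform that covers it, and giant exons are internal coding exons over 2000 nt. Distances to a junction and listed shares were computed over DRACH adenosines of the reference. Members, lists and exon classes were chosen with earlier results of these data known. Named were the 7 members, the 2 genes with the most sites in either library of each partner list, the 3 genes above and 3 below Ank2 and Ank3 by DRACH sites in 1 internal coding exon, and the stretches and sites described with the sequences. The Sptan1 sites printed, off coding exons, were added to that rule after the data were seen, as were the exon numbers and 5-mers named one by one. Some genes of these lists are not reported here. No test was made, as each tissue has 1 library. The scripts were tested on simulated data. Sequences were read with samtools 1.23.1 and pysam 0.24.0, and tables and plots were made in Python 3.11.15 using pandas 2.3.3, numpy 2.4.6 and matplotlib 3.10.9.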

Additional observations from a re-analysis of the deposited data

How the results depend on the processing

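With 1 library per tissue no replicate could be left out, and no paired analysis was possible because each tissue has 1 library. Depth is unknown, which limits every absence. The direction of no value reversed, but the cerebrum excess of Sptan1 was absent with DRACH sites only, at 5 sites in each library. Restricting the members' sites to coding exons lowered the cerebrum count from 603 to 270, the ratio of cerebrum to cerebellum sites from 2.32 to 1.48, and raised the DRACH share to 78.7% and 63.0% and the shared fraction to 73.8% of the cerebellum and 50.0% of the cerebrum sites. With DRACH sites only, the ratio was 1.32 and the shared fractions 84.8% and 64.4%. The stricter motif RRACH gave DRACH shares of 49.2% and 26.7%. Counting all motifs lowered the share of sites in giant exons from 48.8% to 38.5% in the cerebrum. Within 50 nt of a junction lay 0.694% and 1.18% of the DRACH sites and within 200 nt 9.72% and 11.2%, and of the sites in both libraries 1.57% lay within 100 nt, against 4.12% in the cerebrum. Region shares were the same when CDS took priority over every coding isoform, and reading the centre base as A, a tolerance of 1 nt, leaving out sites in another gene of the same strand, and a giant-exon limit of 1000 nt changed these totals by less than the counting interval or 1.5-fold. For single genes, 14 settings went beyond these limits and 24 did not. Leaving out the overlapping gene lowered Sptbn4 from 4 to 2 and from 17 to 8 sites. With DRACH sites only, the ratio of cerebrum to cerebellum sites of Sptan1 went from 2.30 to 1.00.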

Other observations

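The 131 coding-exon sites of the members outside DRACH were mostly found in 1 library, and 8 were shared. Of the 131, 58 had an adenosine whose 5-mer was 1 base away from DRACH, or 44.3% (36.1% to 52.8%), and of the 8 shared sites 7 were. GAACG was at 2 of the 131, and both were shared. The share 1 base away was not computed for other genes or for unlisted adenosines, so whether 44.3% is high was not tested. The codon position of the giant-exon DRACH sites was read for 83 cerebrum sites, with 42 at position 2, or 50.6% (40.1% to 61.1%), where 37.8% of the DRACH adenosines lay. The giant exons of other genes had 46.2% at position 2, against 44.6% of their DRACH adenosines.

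No site of either library lay on the strand opposite to any of the 7 genes within its interval. The share of other coding genes without such a site was not computed, so this absence cannot be called particular to the members. Off coding exons, the density of cerebrum sites per 100 kb was 30.7 in Ank2, 18.6 in Ank3, 19.0 in Sptan1, 18.4 in Sptbn1, 6.09 in Sptbn4, 1.81 in Ank1 and 0 in Sptb. The cerebellum densities were 6.26, 4.28, 12.1, 4.45, 1.22, 0.602 and 0 in the same order. Such densities were not computed for other coding genes, so these values rank the members only. Of the 202 Ank2 sites off coding exons in either library, 25 also lay in another gene of the same strand. On exons of noncoding isoforms lay 24 of these 202, 10 of 137 in Ank3, 7 of 14 in Sptan1 and 2 of 35 in Sptbn1. At 4 of the members' sites the reference held G in place of A, 2 in Ank3 and 1 each in Ank2 and Sptan1, all of them off coding exons.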
